A study of Mus musculus with 10 samples.

Results

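The 41 genes of DNA replication and the S phase described here were chosen by name, as genes for helicase loading, origin firing, the replicative polymerases, the clamp and its loader, chromatin copying and the care of stalled forks, and all 41 were found among the 55573 genes of the deposited table. They were followed in bone marrow–derived macrophages (BMDMs), macrophages grown in culture from the marrow of wild-type female C57BL/6 mice with M-CSF, the growth factor of the macrophage lineage. Each of 5 groups held 2 libraries after 4 hours of treatment. The groups received vehicle, R848 at 1 ng/mL, polyU at 5 µg, PNPi+dG/rG, or the last pair together (PNPi+dG/rG+polyU, here the combined treatment). PolyU is an ssRNA made of uridine that was delivered with the lipid DOTAP, PNPi is 1 µM of the purine nucleoside phosphorylase inhibitor ulodesine, dG and rG are deoxyguanosine and guanosine at 5 µM each, and R848 (resiquimod) is a synthetic TLR7 ligand. The inhibitor and both nucleosides were always given together, and the labels name no group with DOTAP alone. The labels call the libraries of a group biological replicates but do not say whether they came from separate mice or cultures. The p-values rest on the spread between such libraries, pooled over the 5 groups, and this spread may be partly technical. Scatter in the R848 libraries therefore also enters the standard errors of comparisons without R848.

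A cell prepares to copy its DNA by loading rings of MCM proteins onto replication origins, which needs the origin recognition complex, CDC6 and CDT1. In S phase CDC45 and the GINS complex turn the loaded ring into an active helicase, polymerase α with primase starts each strand, polymerases δ and ε extend it, and PCNA, loaded by RFC, holds them on the template. Transcription of many of these genes is driven by E2F factors when cells enter the cycle and is held down by RB family proteins in resting cells. Macrophages grown in M-CSF can divide, and ligands of Toll-like receptors are known to stop this division.

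Levels are given in CPM, the reads on a gene scaled to the same total of reads on genes in every library. Differences are on the log2 scale, on which a difference of 1 is a 2-fold change, with the standard error, and were fitted with limma for the 11978 genes that reached at least 1 CPM in at least 2 libraries. All 41 members passed this filter. A gene was called changed at a Benjamini-Hochberg adjusted p under 0.05 over all 11978 genes. In bulk RNA, fewer cells in S phase and less RNA per cell cannot be told apart. The libraries held 14128128 to 38392592 reads on genes. No member was at 0 reads in any library, the fewest outside R848 were 42 reads (Orc1), and 3 members (Orc1, Cdc6 and Neil3) had 3 or fewer reads in an R848 library.

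Replication transcripts were lowest after R848, intermediate after the combined treatment, and nearest to vehicle after polyU or PNPi+dG/rG alone. Together the 41 genes took 3072 and 2895 CPM in the vehicle libraries, 2830 and 2445 with polyU, 2797 and 2891 with PNPi+dG/rG, 1477 and 1481 with the combined treatment, and 304 and 313 with R848. The mean sum was 88.4% of that in vehicle after polyU, 95.3% after PNPi+dG/rG, 49.6% after the combined treatment and 10.3% after R848. The R848 and combined-treatment libraries lay below every library of the other groups in this sum.

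**Figure D1:**
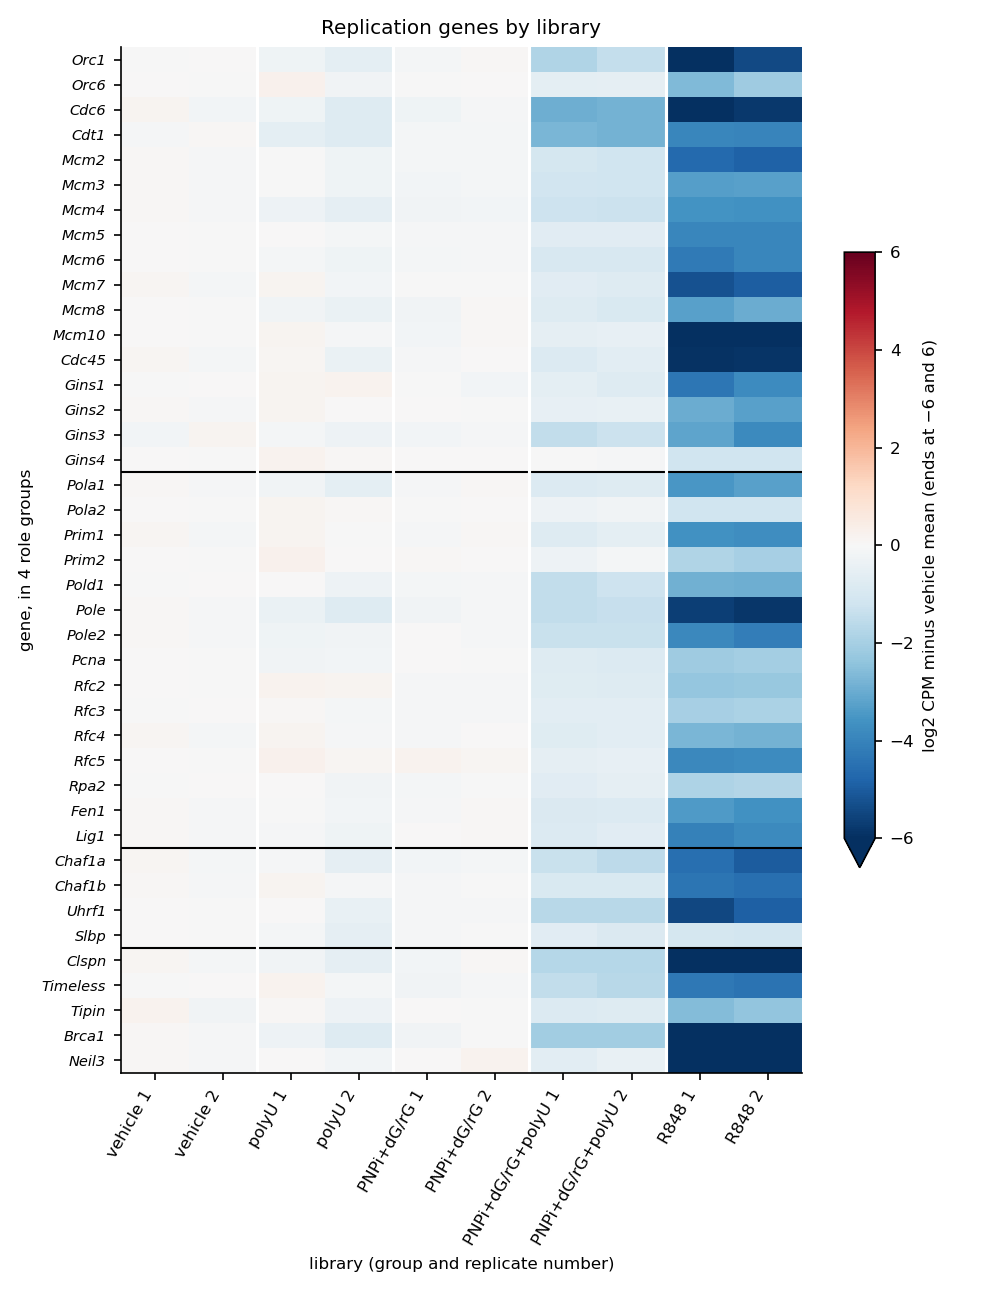
Heat map of the 41 replication genes (rows, in 4 role groups from helicase loading at the top to fork protection and repair at the bottom) in the 10 libraries (columns); the color is the log2 CPM minus the mean of the vehicle libraries, with blue for lower values and a scale that ends at -6 and 6. The R848 columns are blue in all 41 rows and the PNPi+dG/rG+polyU columns are paler blue in nearly all, with the darkest of their rows at Cdc6 and Cdt1.

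After R848 every one of the 41 members was called lower than in vehicle, and 0 were called higher, against 62.9% and 19.2% of all genes tested. All 41 members fell at least 2-fold, as did 30.3% of all genes, and 29 fell at least 8-fold, as did 6.22% of all genes. The median member difference was -3.82, a 14.2-fold reduction, beside a median of -0.50 over all genes, and members ranged from -8.05 for Neil3 to -1.08 for Slbp.

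After the combined treatment, 36 members were called lower and 0 higher than in vehicle, against 46.7% and 22.2% of all genes tested. Of these 36, 14 fell at least 2-fold, which 14.3% of all genes did, and 3 fell at least 4-fold, as did 3.34% of all genes, namely Cdc6, Cdt1 and Brca1. The median member difference was -0.80 beside -0.22 over all genes. The 5 members not called were Orc1, Mcm10, Neil3, Prim2 and Gins4, and all 41 estimates lay below 0. In a fit without the R848 libraries, added after the data were seen, Orc1, Mcm10 and Neil3 were also called and 39 members were lower.

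CPM adds up to the same total in every library, so a difference is relative to all other genes. When libraries were instead aligned at their median gene, the median of all genes moved from -0.22 to -0.01 after the combined treatment and from -0.50 to 0.09 after R848. On this scale 34 members were lower after the combined treatment with a median of -0.59, and 41 after R848 with a median of -3.23. The split of all genes moved to 33.2% higher and 33.2% lower after the combined treatment, and to 43% higher and 34.6% lower after R848.

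**Figure D2:**
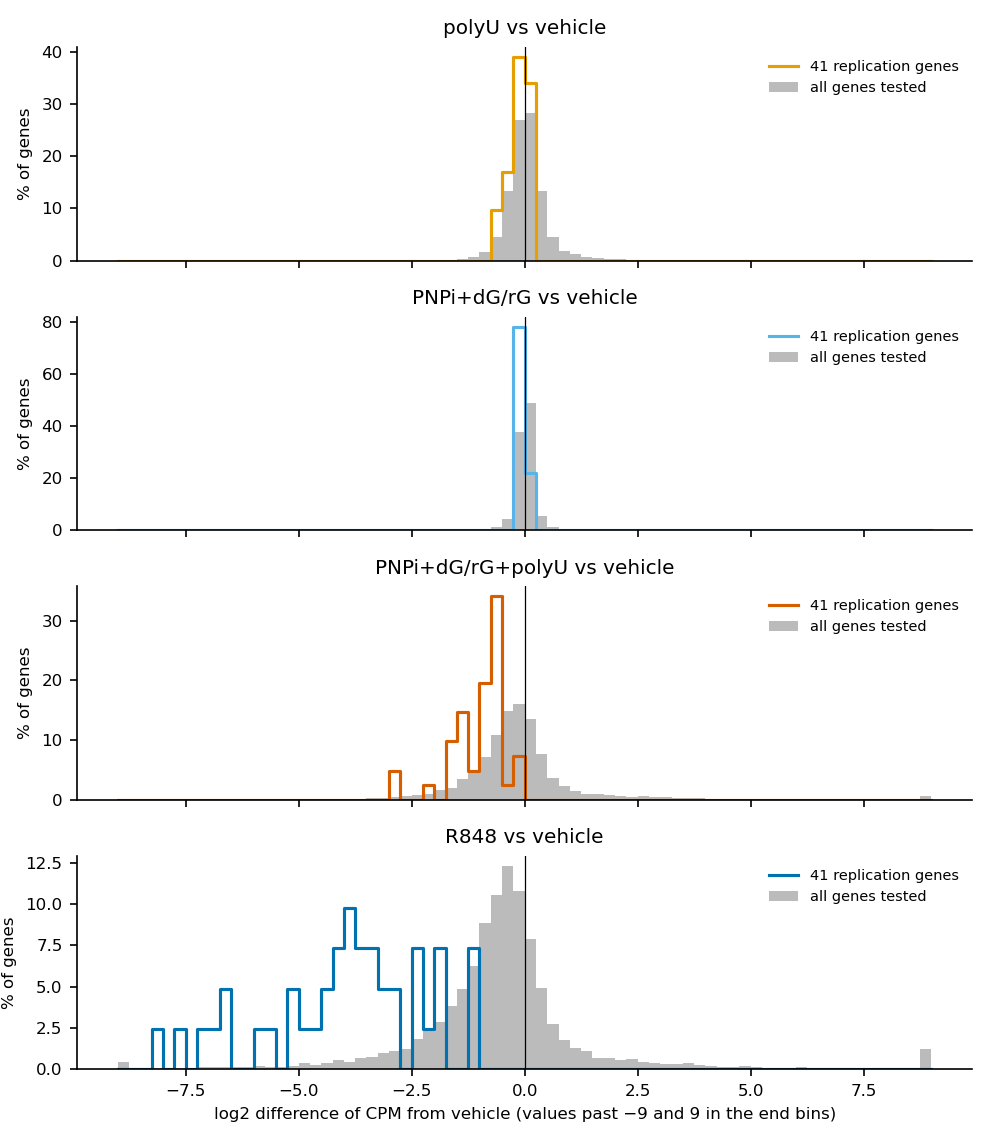
Share of genes (vertical axis, % of genes) by log2 difference of CPM from vehicle (horizontal axis, bins of 0.25) in the 4 treated groups, with all 11978 genes tested in grey and the 41 replication genes as a colored outline. The outline covers the grey peak after polyU and after PNPi+dG/rG, is shifted to a median of -0.80 after PNPi+dG/rG+polyU, and reaches from -8.05 to -1.08 after R848.

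PolyU alone gave 6 members lower (Cdt1, Pole, Mcm4, Pola1, Slbp and Pcna) and 1 higher (Rfc2), which is 14.6% and 2.44% of the members against 18.7% and 20.6% of all genes tested. None of the 7 differences reached 2-fold. Whether the share of members called lower exceeded that of all genes depended on the settings. It was 26.8% against 18.3% without polyU replicate 1, 24.4% against 19.6% without R848 replicate 1 or R848 replicate 2, and 26.8% against 20.4% with a pseudocount of 1, but 9.76% against 13.5% without polyU replicate 2. The 7 differences ranged from -0.68 for Cdt1 to 0.18 for Rfc2. The polyU replicates themselves differed, since 38 of the 41 members were lower in replicate 2 than in replicate 1, with a median difference of -0.22 (log2) where all genes had -0.01. The vehicle replicates differed in the same way but less, with 33 members lower in replicate 2 and a median of -0.09. The median member difference after polyU was -0.14, and 0.03 without polyU replicate 2. With polyU replicate 1 left out 11 members were lower, without R848 replicate 1 or R848 replicate 2 there were 10, and the call of Rfc2 was lost without any 1 of the vehicle, polyU and PNPi+dG/rG libraries. The calls of Slbp (without vehicle replicate 1, vehicle replicate 2 or polyU replicate 2) and Pola1 (without vehicle replicate 1 or polyU replicate 2) were lost as well.

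PNPi+dG/rG without polyU gave 0 members higher and 0 lower at an adjusted p under 0.05 in limma, where 0.409% and 0.392% of all genes were called, and 1 member (Mcm4) had an unadjusted p under 0.05. Member differences ranged from -0.18 to 0.17. The 95% interval of the difference lay within 0.5 of 0 on the log2 scale for 33 members and within 1 of 0 for 37, and it was widest for Orc1, from -1.58 to 1.53. These intervals rest on 2 libraries a group and on the spread pooled over the 5 groups, so scatter in the R848 libraries also enters them. Orc1 was among the members with 3 or fewer reads in an R848 library. The smallest change that could be detected was not tested.

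The promoters of 5 members are shown because these genes fell together and because E2F sites of known sequence type can be looked for in them. RefSeq windows of the build GRCm38.p6, from 250 bases before to 50 bases after a transcription start, were found for 33 of the 41 members. They were searched on both strands for 4 E2F-type 8-base words, TTTCCCGC, TTTCGCGC, TTTGCCGC and TTTGGCGC, and at least 1 of them stood in the windows of 16 of the 33 members (48.5%), against 704 of 27025 genes in all (2.6%) and 20 of 84 further replication genes (23.8%). The CCAAT word, the site of NF-Y, stood in 21 of the 33 members (63.6%) and in 41.1% of all genes, and 1 member window held an E2F-type word that overlapped a CCAAT word. The 27025 genes include genes that did not pass the filter on expression, which all members passed. The shares among the 11978 genes tested were not computed. Below, the matches are in capitals, the windows are cut at 30 bases after the start, and the 5 genes are those with a match inside that stretch among the members described library by library, in the order of their difference after R848. Cdt1 also has a match, which begins at +33, after the stretch shown. The window of Uhrf1 is the downstream of its 2 RefSeq starts. RefSeq starts can differ from the gene starts of GENCODE. The windows of Cdc6 and Uhrf1 lie inside the GENCODE gene spans, which begin at 98907801 and 56303321.
Clspn (chr4:126556730-126557009, plus strand): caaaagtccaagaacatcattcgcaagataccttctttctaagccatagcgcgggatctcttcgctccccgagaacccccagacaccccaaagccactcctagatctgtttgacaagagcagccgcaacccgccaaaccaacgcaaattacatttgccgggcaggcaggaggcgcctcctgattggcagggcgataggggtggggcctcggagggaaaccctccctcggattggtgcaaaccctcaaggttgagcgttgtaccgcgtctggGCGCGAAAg
Cdc6 (chr11:98907901-98908180, plus strand): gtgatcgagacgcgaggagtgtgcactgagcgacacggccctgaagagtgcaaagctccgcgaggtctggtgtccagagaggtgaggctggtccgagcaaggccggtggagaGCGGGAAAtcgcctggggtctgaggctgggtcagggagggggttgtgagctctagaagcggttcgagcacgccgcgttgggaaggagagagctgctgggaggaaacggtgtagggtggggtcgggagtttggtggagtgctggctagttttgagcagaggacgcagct
Orc1 (chr4:108579204-108579483, plus strand): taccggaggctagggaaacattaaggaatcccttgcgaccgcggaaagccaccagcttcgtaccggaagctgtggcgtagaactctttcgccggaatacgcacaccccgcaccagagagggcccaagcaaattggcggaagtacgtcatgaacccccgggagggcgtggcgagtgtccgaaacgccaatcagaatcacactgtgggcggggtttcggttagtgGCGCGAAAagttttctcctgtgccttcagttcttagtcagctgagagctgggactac
Uhrf1 (chr17:56304063-56304342, plus strand): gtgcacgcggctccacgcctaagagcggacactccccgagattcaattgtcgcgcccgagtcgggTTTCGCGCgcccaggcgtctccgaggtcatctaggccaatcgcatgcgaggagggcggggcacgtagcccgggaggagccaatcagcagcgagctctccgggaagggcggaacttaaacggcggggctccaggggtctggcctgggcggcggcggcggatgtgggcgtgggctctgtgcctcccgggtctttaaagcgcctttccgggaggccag
Mcm5 (chr8:75109259-75109538, plus strand): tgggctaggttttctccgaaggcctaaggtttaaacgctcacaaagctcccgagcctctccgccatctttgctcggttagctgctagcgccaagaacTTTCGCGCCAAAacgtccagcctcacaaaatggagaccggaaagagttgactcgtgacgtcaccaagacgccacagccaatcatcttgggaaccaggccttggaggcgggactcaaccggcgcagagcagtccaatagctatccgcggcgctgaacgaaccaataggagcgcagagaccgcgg

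Counted from the start as +1, the match began at +22 in Clspn, -138 in Cdc6, -27 in Orc1 and -185 in Uhrf1, and the window of Mcm5 held a pair of overlapping matches that began at -153 and -149. The 16 members with an E2F-type word had a median difference of -1.25 after the combined treatment and the 17 without one -0.74, and after R848 the medians were -3.94 and -3.82. The ranges overlapped, from -2.88 to -0.64 and from -2.09 to -0.25 after the combined treatment. These values are a description over genes that were chosen together, and no binding was measured.

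Among the 17 genes for helicase loading and origin firing, 14 were called lower after the combined treatment (median -0.85) and 17 after R848 (median -3.93). Cdc6 and Cdt1, whose proteins bring the MCM ring to the origin, fell furthest of these after the combined treatment. Cdc6 (chromosome 11, 98907801 to 98923940 of GRCm38) was measured at 29.5 and 24.2 CPM in the vehicle libraries, 22.4 and 15.7 with polyU, 22.5 and 25.5 with PNPi+dG/rG, 3.54 and 3.73 with the combined treatment, and 0.159 and 0.490 with R848. The vehicle and PNPi+dG/rG libraries overlapped, both polyU libraries lay below them, both combined-treatment libraries far below polyU, and both R848 libraries lower still. The difference from vehicle was -2.88 ± 0.51 (adjusted p = 0.00254) after the combined treatment and -6.58 ± 0.51 (adjusted p = 2.57e-05) after R848, where 3 and 16 reads were counted. The pooled vehicle to R848 ratio of Cdc6 was 72.7 (exact 95% interval 46.3 to 121), which covers counting error only.

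Cdt1 (chromosome 8, 122568015 to 122573554) was measured at 179.6 and 195 CPM in the vehicle libraries, 123 and 110.4 with polyU, 171 and 171 with PNPi+dG/rG, 28.2 and 26.6 with the combined treatment, and 12.3 and 12.2 with R848. Its vehicle and PNPi+dG/rG libraries were the highest, polyU was lower than both without overlap, and the combined-treatment and R848 libraries each formed a narrow lower pair. The difference from vehicle was -0.68 ± 0.065 (adjusted p = 6.79e-07) after polyU, -2.77 ± 0.065 (adjusted p = 4.65e-15) after the combined treatment and -3.93 ± 0.065 (adjusted p = 4.35e-17) after R848. The combined-treatment level exceeded the R848 level by 1.16 ± 0.065 (adjusted p = 3.52e-10).

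Orc1, the large subunit of the origin recognition complex, was measured at 10.04 and 10.7 CPM in the vehicle libraries, 8.58 and 6.80 with polyU, 9.61 and 10.7 with PNPi+dG/rG, 2.97 and 3.80 with the combined treatment, and 0.0531 and 0.245 with R848. The combined-treatment libraries lay below all vehicle, polyU and PNPi+dG/rG libraries, and R848 left 1 and 8 reads. The difference was -1.62 ± 0.64 (adjusted p = 0.0611) after the combined treatment and -6.50 ± 0.64 (adjusted p = 6.76e-05) after R848, and the pooled vehicle to R848 ratio was 59.3 (exact 95% interval 30.9 to 131). Without the R848 libraries the first of these had the same size with an adjusted p of 3.07e-07, and over all alternatives its adjusted p ran from 1.48e-07 to 0.203.

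The genes of the MCM ring were all called lower after both treatments. Mcm2 was measured at 159.8 and 148 CPM in the vehicle libraries, 150.5 and 128 with polyU, 142 and 143 with PNPi+dG/rG, 73.05 and 66.3 with the combined treatment, and 6.11 and 5.36 with R848. Its combined-treatment libraries were below all vehicle, polyU and PNPi+dG/rG libraries and far above those of R848, with differences from vehicle of -1.15 ± 0.083 (adjusted p = 1.11e-08) and -4.75 ± 0.083 (adjusted p = 3.73e-16). Mcm5 was measured at 200.2 and 189.9 CPM in the vehicle libraries, 199.6 and 181 with polyU, 184 and 187 with PNPi+dG/rG, 120.3 and 121 with the combined treatment, and 12.9 and 13.01 with R848. The combined-treatment and R848 pairs of Mcm5 were again apart from the rest and from each other, with differences of -0.69 ± 0.055 (adjusted p = 1.69e-08) and -3.91 ± 0.055 (adjusted p = 8.26e-18). Over the ring subunits Mcm2, Mcm3, Mcm4, Mcm5, Mcm6 and Mcm7, the difference after the combined treatment lay between -1.27 for Mcm4 and -0.69 for Mcm5, and after R848 between -5.09 for Mcm7 and -3.28 for Mcm3.

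Mcm10 and Cdc45 encode factors that act when the loaded helicase is switched on. Mcm10 was measured at 51.2 and 49.3 CPM in the vehicle libraries, 56.3 and 48.1 with polyU, 44.6 and 52.4 with PNPi+dG/rG, 34.3 and 35.2 with the combined treatment, and 0.690 and 0.184 with R848. The combined-treatment libraries of Mcm10 lay below the first 3 groups by a modest step, whereas R848 left 13 and 6 reads. Its difference from vehicle was -0.53 ± 0.60 (adjusted p = 0.47) after the combined treatment, not called, and -7.14 ± 0.60 (adjusted p = 9.5e-05) after R848. The standard error was shared with R848, and the first difference was called in the fit without the R848 libraries. Cdc45 was measured at 31.8 and 27.1 CPM in the vehicle libraries, 31.5 and 22.5 with polyU, 28.4 and 29.97 with PNPi+dG/rG, 16.5 and 18.8 with the combined treatment, and 0.478 and 0.490 with R848. Its pattern was alike, with the combined treatment between the first 3 groups and R848, and differences of -0.74 ± 0.15 (adjusted p = 0.00035) and -5.92 ± 0.15 (adjusted p = 3.9e-15). Of the GINS subunits, Gins3 fell by 1.38 on the log2 scale after the combined treatment, while Gins4 stood at -0.05 ± 0.078 (adjusted p = 0.609) and after R848 at -1.21 ± 0.078 (adjusted p = 6.38e-10).

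**Figure D3:**
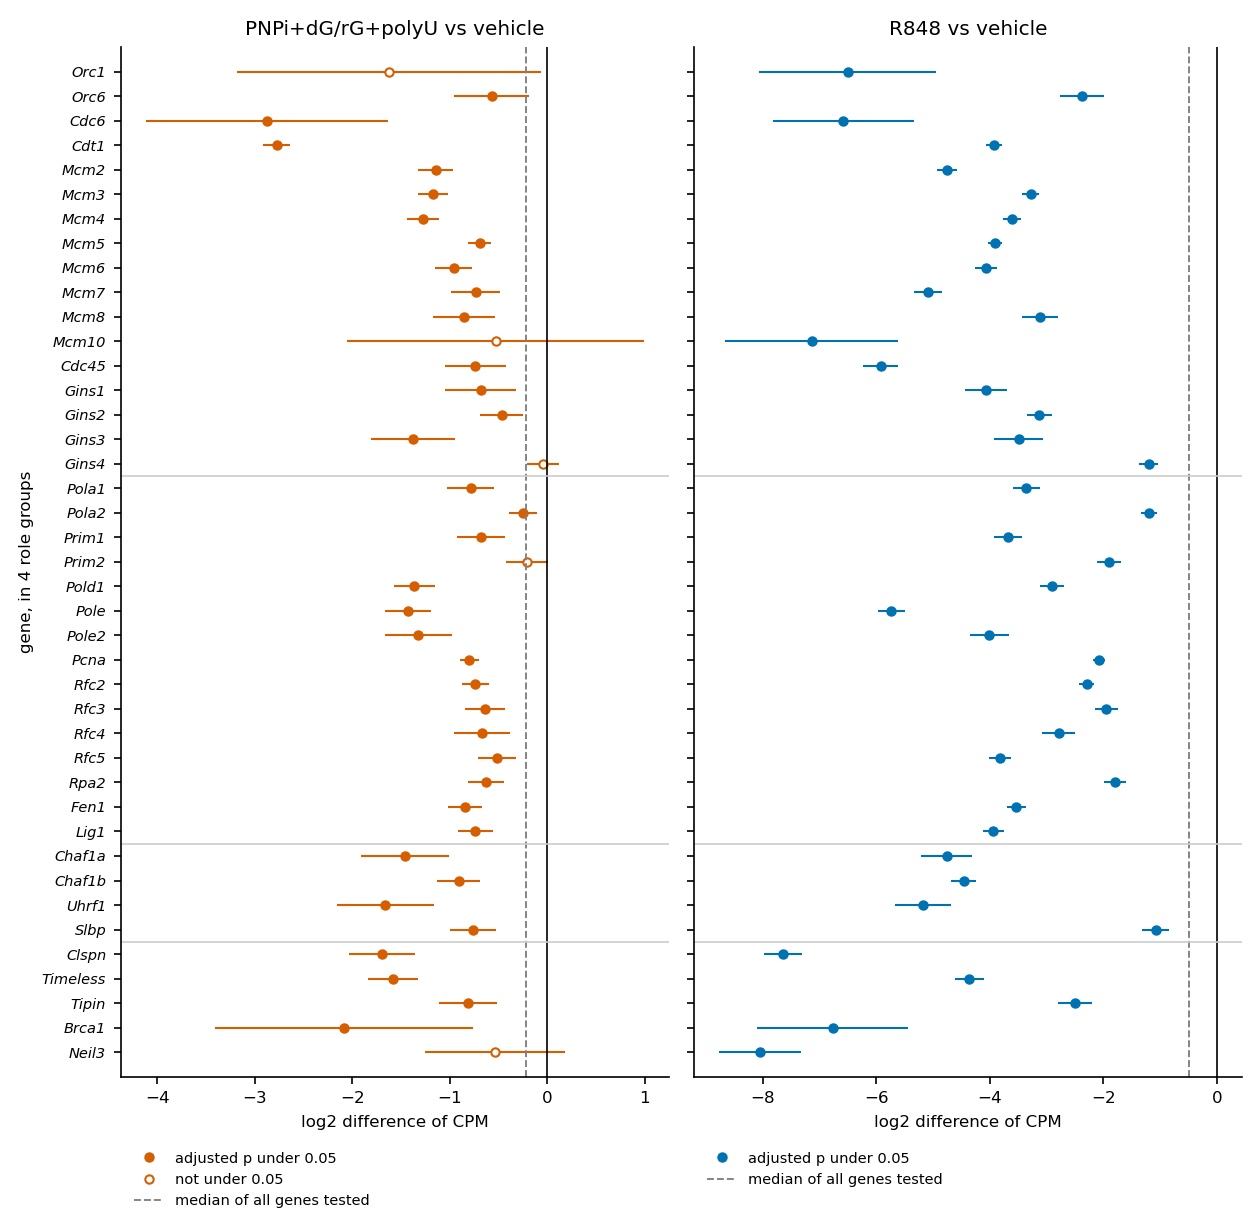
Log2 difference of CPM from vehicle for each of the 41 genes (points) with its 95% interval (bars) after PNPi+dG/rG+polyU (left) and R848 (right, on a wider scale); filled points have an adjusted p under 0.05, the dashed line is the median of all genes tested, and grey lines part the 4 role groups. Cdc6 and Cdt1 lie furthest left in the left panel and Neil3 and Clspn in the right one, and bars are long for Orc1, Cdc6, Mcm10 and Brca1.

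The 15 genes for polymerases, clamp, clamp loader and strand completion had the smallest median reduction of the 4 role groups after both treatments, -0.74 after the combined treatment (14 called lower) and -2.91 after R848 (15 called lower). Pcna, the sliding clamp, was measured at 240.2 and 235 CPM in the vehicle libraries, 205 and 211 with polyU, 238 and 231 with PNPi+dG/rG, 139 and 134 with the combined treatment, and 54.7 and 57.5 with R848. The polyU libraries were below those of vehicle by a small step, and the combined treatment and R848 followed without overlap. Pcna differed from vehicle by -0.19 ± 0.047 (adjusted p = 0.0038) after polyU, -0.80 ± 0.047 (adjusted p = 3.38e-10) after the combined treatment and -2.08 ± 0.047 (adjusted p = 1.17e-15) after R848.

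Pole, the catalytic subunit of the leading-strand polymerase ε, was measured at 78.7 and 70.7 CPM in the vehicle libraries, 55.97 and 43.9 with polyU, 64.1 and 70.98 with PNPi+dG/rG, 27.1 and 28.4 with the combined treatment, and 1.49 and 1.32 with R848. Its polyU libraries lay below vehicle and its combined-treatment libraries below those, and R848 reduced it to under 2 CPM. The differences from vehicle were -0.59 ± 0.11 (adjusted p = 0.000588) after polyU, -1.43 ± 0.11 (adjusted p = 1.53e-08) after the combined treatment and -5.74 ± 0.11 (adjusted p = 3.73e-16) after R848. Fen1, the nuclease that trims Okazaki fragments, was measured at 105 and 97.9 CPM in the vehicle libraries, 101 and 90.3 with polyU, 98.1 and 106 with PNPi+dG/rG, 56.1 and 56.8 with the combined treatment, and 9.56 and 8.05 with R848. Its polyU replicates stood on either side of the lower vehicle value, and its differences were -0.85 ± 0.082 (adjusted p = 2.04e-07) after the combined treatment and -3.53 ± 0.082 (adjusted p = 2.68e-15) after R848.

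Subunits of the same enzyme had different estimates. Of polymerase α-primase, Pola1 and Prim1, the catalytic subunits, were at -0.79 and -0.68 after the combined treatment and -3.36 and -3.68 after R848, while Pola2 and Prim2, the accessory ones, were at -0.25 and -0.21 and at -1.21 and -1.91. The difference between subunits was not tested. Pold1, the catalytic subunit of polymerase δ, fell by 1.36 on the log2 scale after the combined treatment, and the clamp loader genes Rfc2, Rfc3, Rfc4 and Rfc5 lay between -0.74 and -0.52. Lig1, which seals the nicks between Okazaki fragments, stood at -0.74 after the combined treatment and -3.94 after R848.

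All 4 genes for chromatin copying and histone mRNA were called lower after the combined treatment (median -1.19) and after R848 (median -4.61). Uhrf1, which brings the maintenance DNA methyltransferase to newly copied DNA, was measured at 116 and 111 CPM in the vehicle libraries, 117 and 84.1 with polyU, 108 and 109 with PNPi+dG/rG, 36.1 and 35.9 with the combined treatment, and 2.60 and 3.80 with R848. The polyU replicates of Uhrf1 were far apart, the higher one level with vehicle, and the combined treatment and R848 were each lower without overlap. Its differences from vehicle were -1.66 ± 0.21 (adjusted p = 0.000351) and -5.18 ± 0.21 (adjusted p = 3.81e-07). The chromatin assembly factor genes Chaf1a and Chaf1b stood at -1.46 and -0.91 after the combined treatment and at -4.76 and -4.46 after R848.

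Slbp, which binds the stem-loop of histone mRNAs, was measured at 59.1 and 55.9 CPM in the vehicle libraries, 52.5 and 39.4 with polyU, 55.01 and 57.1 with PNPi+dG/rG, 36.2 and 31.9 with the combined treatment, and 27.3 and 27.1 with R848. The polyU, combined-treatment and R848 libraries were all below vehicle, and the last pair of groups stood close to each other. Its difference was -0.34 ± 0.11 (adjusted p = 0.0267) after polyU, -0.76 ± 0.11 (adjusted p = 4.11e-05) after the combined treatment and -1.08 ± 0.11 (adjusted p = 9.07e-07) after R848, the smallest reduction of any member after R848. Between the combined treatment and R848 Slbp differed by 0.32 ± 0.11 (adjusted p = 0.0196), and with libraries centred on the median this was -0.06 with an adjusted p of 0.606, so that its direction depended on the scaling. The call was also lost without R848 replicate 1, R848 replicate 2 or combined-treatment replicate 1, with adjusted p from 0.0012 to 0.155 over the libraries left out.

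The 5 genes for fork protection and repair had the largest median reduction of the role groups, -1.58 after the combined treatment (4 called lower) and -6.77 after R848 (5 called lower). Brca1, which protects stalled forks and repairs broken ones by homologous recombination, was measured at 63.4 and 58.4 CPM in the vehicle libraries, 49.4 and 35.9 with polyU, 52.7 and 60.7 with PNPi+dG/rG, 14.2 and 14.5 with the combined treatment, and 0.319 and 0.980 with R848. PolyU lay below vehicle, the combined treatment below polyU, and R848 below 1 CPM, with no overlap between these groups. The difference from vehicle was -2.09 ± 0.52 (adjusted p = 0.0154) after the combined treatment and -6.77 ± 0.52 (adjusted p = 6.09e-05) after R848, where 6 and 32 reads were counted. The first call was lost when vehicle replicate 1 or 2 or combined-treatment replicate 1 or 2 was left out (adjusted p from 2.62e-09 to 0.0637 over the libraries left out), and without both R848 libraries its adjusted p was 1.57e-08. Orc6, a small subunit of the origin recognition complex, likewise lost its call after the combined treatment without vehicle replicate 1 or either combined-treatment library, with adjusted p from 0.000876 to 0.0731.

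Clspn, the checkpoint adaptor that carries the stalled-fork signal to CHK1, was measured at 77.998 and 66.7 CPM in the vehicle libraries, 61.7 and 49.9 with polyU, 64.1 and 75.9 with PNPi+dG/rG, 22.4 and 22.2 with the combined treatment, and 0.425 and 0.306 with R848. The combined treatment and R848 were each below all other groups, and R848 left 8 and 10 reads. The difference was -1.69 ± 0.15 (adjusted p = 6.58e-07) after the combined treatment and -7.64 ± 0.15 (adjusted p = 7.53e-14) after R848. Timeless, which holds helicase and polymerase together at the fork, stood at -1.58 ± 0.12 (adjusted p = 7.55e-09) after the combined treatment, and its partner Tipin at -0.81 ± 0.14 (adjusted p = 0.000121).

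Neil3, a DNA glycosylase that also unhooks cross-links at forks, was measured at 22.8 and 20.1 CPM in the vehicle libraries, 21.9 and 19.1 with polyU, 21.9 and 24.5 with PNPi+dG/rG, 13.7 and 15.9 with the combined treatment, and 0.0531 and 0.122 with R848. The vehicle, polyU and PNPi+dG/rG libraries overlapped, the combined treatment lay moderately lower, and R848 left 1 and 4 reads. After the combined treatment the difference was -0.53 ± 0.32 (adjusted p = 0.164), not called, and without the R848 libraries its adjusted p was 0.00053, within a range of 0.00053 to 0.404 over all alternatives. After R848 the fitted difference was -8.05 ± 0.32 (adjusted p = 5.44e-09), and the ratio of pooled reads between vehicle and R848 was 221 (exact 95% interval 94.2 to 682).

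**Figure D4:**
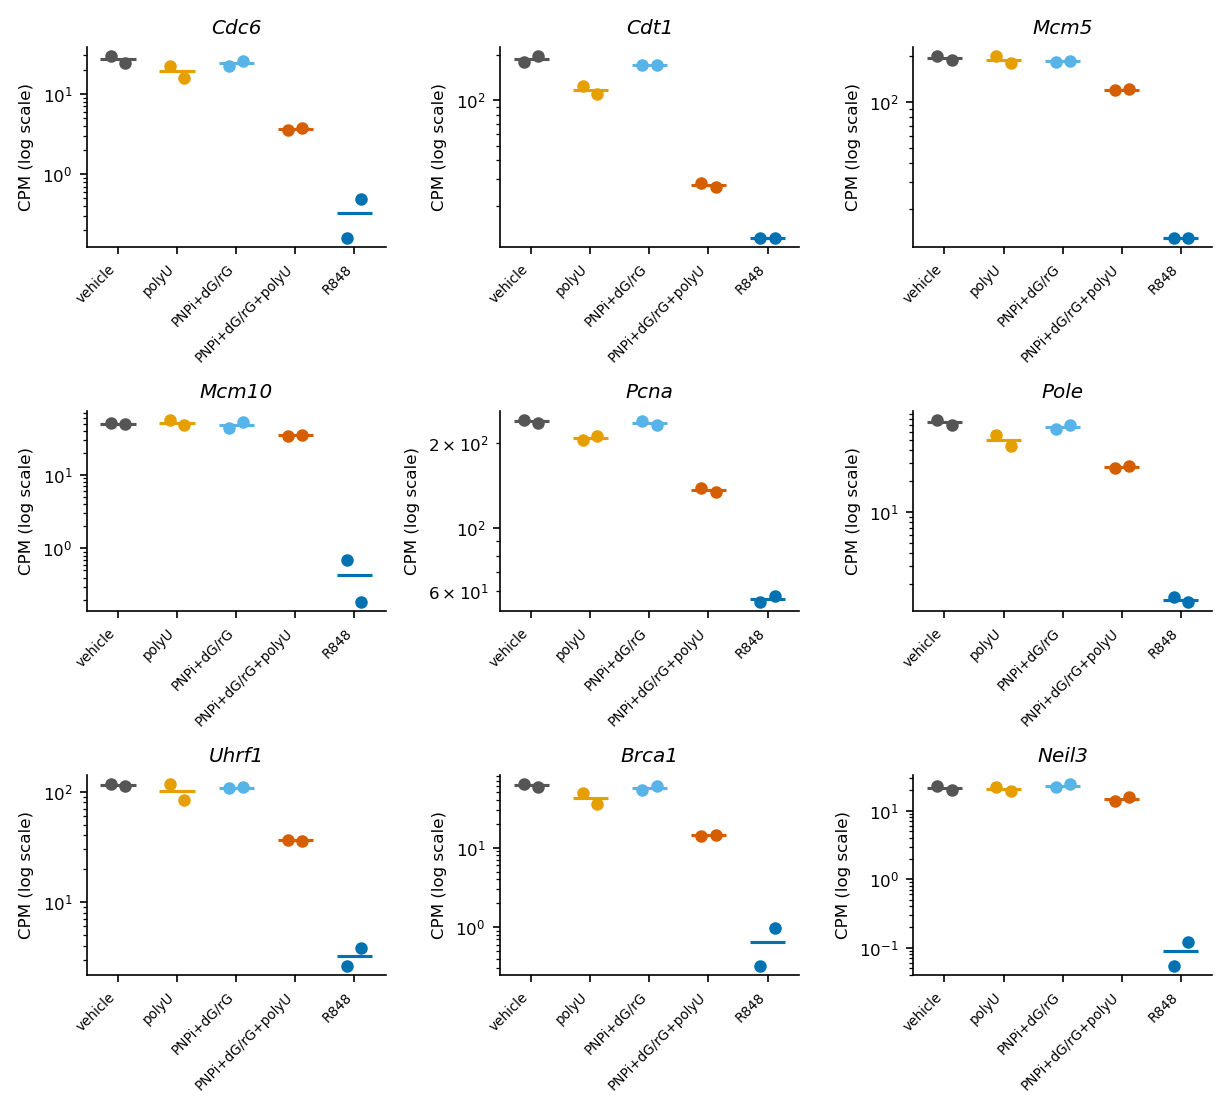
CPM on a log scale (vertical axis, with its own range in each panel) of 9 replication genes in the 2 libraries of each group (points), with the group mean as a line. Cdt1 reads 28.2 and 26.6 CPM after PNPi+dG/rG+polyU and 12.3 and 12.2 CPM after R848, while Mcm10 and Neil3 stay at or above 13.7 CPM after PNPi+dG/rG+polyU and fall below 1 CPM after R848.

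The combined treatment was then set against polyU and against R848 directly. These comparisons share libraries with those above, so they are not independent of them. Against polyU, 38 members were called lower, 11 of them at least 2-fold, where 47.5% and 10.2% of all genes were, and the median member difference was -0.76 beside -0.24 over all genes. With libraries centred on the median 29 members were called lower, where 25.3% of all genes were lower and 30.1% higher, and Gins4 turned from -0.19 to 0.06. Leaving out any 1 of the vehicle, polyU, PNPi+dG/rG or combined-treatment libraries ended the call of Brca1 here, with adjusted p from 1.12e-07 to 0.172 over the libraries left out. Calls were also lost without polyU replicate 1 for Orc6, Cdc45, Gins4, Pola1, Prim2 and Slbp, without combined-treatment replicate 1 for Orc6, Pola1 and Prim2, without combined-treatment replicate 2 for Orc6, Gins4 and Slbp, and without either PNPi+dG/rG library for Gins4, with adjusted p up to 0.254 for Gins4.

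Against R848, all 41 members were called higher after the combined treatment, 39 of them at least 2-fold, where 53.9% and 16.9% of all genes were, with a median of 2.69 beside 0.31 over all genes. The 4 largest differences were those of Neil3 at 7.52 ± 0.32 (adjusted p = 2.16e-08), Mcm10 at 6.61 ± 0.60 (adjusted p = 0.000196), Clspn at 5.95 ± 0.15 (adjusted p = 4.88e-12) and Cdc45 at 5.18 ± 0.15 (adjusted p = 1.34e-13). These 4 each had 10 or fewer reads in an R848 library, so their sizes also carry counting error. The smallest differences were those of Slbp at 0.32 and Pola2 at 0.96, both under 2-fold, and next above them were Cdt1 at 1.16, Gins4 at 1.16, Rpa2 at 1.17 and Pcna at 1.28. Centred on the median, 40 members were called higher, and 28.4% of all genes were higher and 37.5% lower.

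The effect of PNPi+dG/rG in the presence of polyU minus its effect without polyU, the interaction, was negative for all 41 members. It was called for 32 of them, 9 at least 2-fold, against 38.9% and 8.87% of all genes, and the median was -0.70 beside -0.27 over all genes. Cdt1 had an interaction of -1.96 ± 0.092 (adjusted p = 1.29e-10), Timeless -1.47 ± 0.17 (adjusted p = 3.34e-06) and Uhrf1 -1.39 ± 0.29 (adjusted p = 0.00767). After centring, 21 members were called and 17% of all genes were lower and 24.1% higher. Cdc6 had the largest interaction, -2.21 ± 0.72 (adjusted p = 0.0437), but its call was lost without any 1 of the libraries outside R848, with adjusted p from 9.8e-07 to 0.111 over the libraries left out. Calls that also depended on 1 library were those of Prim2 (any of vehicle, polyU replicate 1, PNPi+dG/rG and combined-treatment replicate 1, adjusted p up to 0.133), Cdc45 (vehicle replicate 2, polyU replicate 1, PNPi+dG/rG replicate 1 or 2, or combined-treatment replicate 1, up to 0.163), Gins1 (PNPi+dG/rG replicate 1 or combined-treatment replicate 2, up to 0.0646) and Chaf1a (combined-treatment replicate 2, up to 0.0546).

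A further 103 genes of replication, nucleotide supply, chromatin copying, repair and E2F control were listed by role, and 79 of them were called lower and 3 higher after the combined treatment, 97 lower and 1 higher after R848, 23 lower and 6 higher after polyU, and 0 either way after PNPi+dG/rG. The shares called lower were 76.7%, 94.2% and 22.3%, against 46.7%, 62.9% and 18.7% of all genes, so that the share after polyU was near that of the whole table. With libraries centred on the median, 3 of those called after the combined treatment changed sign (Orc3, Top1 and Rbbp4), as did 6 of those called after R848 (Orc3, Mcmbp, Samhd1, Hus1, E2f3 and E2f4). Of 17 origin licensing and helicase regulators, 16 were lower after each of the combined treatment and R848, led by Wdhd1 (-2.22) and Recql4 (-1.79) after the first and by Ticrr (-7.71) and Gmnn (-5.43) after the second. Gmnn encodes geminin, the inhibitor of CDT1, and Ticrr an origin-firing factor. A list of 17 other fork genes held polymerase and clamp-loader subunits, single-strand binding proteins, nucleases and topoisomerases. Of these, 10 were lower after the combined treatment and 15 after R848. Dna2 (-2.34), a nuclease of Okazaki fragments, and Atad5 (-1.96), which unloads PCNA, led after the first, and Dscc1 (-6.73) and Top2a (-6.08) after the second.

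In the list of 13 genes of dNTP supply, 7 were lower and 2 higher after the combined treatment, which is 53.8% and 15.4% and near the 46.7% and 22.2% of all genes. Rrm2, the S-phase subunit of ribonucleotide reductase, fell from 119 to 51.2 CPM, a difference of -1.21 ± 0.10 (adjusted p = 3.7e-08), and Dtymk, thymidylate kinase, stood at -0.82 ± 0.13 (adjusted p = 4.99e-05). The 2 that rose were Samhd1, the dNTP hydrolase, at 0.97 ± 0.051 (adjusted p = 8.02e-11), and Dck, deoxycytidine kinase, at 0.23 ± 0.076 (adjusted p = 0.0154). After R848, 12 of the 13 were lower and 0 higher, where 62.9% and 19.2% of all genes were. Rrm2 (-7.07) and Tk1 (-5.46), the S-phase thymidine kinase, fell furthest. Samhd1 and Dck were among those lower, at -0.42 ± 0.051 (adjusted p = 1.28e-06) and -1.20 ± 0.076 (adjusted p = 1.93e-09). Centring the libraries turned Samhd1 to 0.17 after R848 and left Dck negative.

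Of all genes tested, 46.7% were lower after the combined treatment and 62.9% after R848, and 22.2% and 19.2% were higher. Of 12 genes of histone supply and chromatin copying, 10 were lower after the combined treatment and 12 after R848. Dnmt1 (-1.92), the maintenance DNA methyltransferase, and Npat (-1.55), an activator of histone genes, led after the first. Asf1b (-4.56) and Hells (-4.50) led after the second. Of 26 genes of fork protection and repair, 21 were lower after the combined treatment, led by Msh6 (-2.45) of mismatch repair and Ung (-2.36), uracil DNA glycosylase, and 25 after R848, led by Rad51ap1 (-7.73) and Fanci (-7.68). A list of 18 genes held the E2F and RB families with Tfdp1, Tfdp2, Ccne1, Ccne2, Cdk2, Cdc25a and Mybl2. Of these, 15 were lower and 1 higher after the combined treatment, and 17 were lower and 1 higher after R848. E2f2, an activating E2F, had a mean of 60.2 CPM in vehicle, 40.9 with polyU, 5.68 with the combined treatment and 0.217 with R848, and differed from vehicle by -3.42 ± 0.24 (adjusted p = 4.16e-07) and -8.17 ± 0.24 (adjusted p = 1.67e-10). Ccne2, cyclin E2, followed at -2.04 ± 0.19 (adjusted p = 1.11e-06) after the combined treatment, and E2f7 had the largest fitted difference of this list after R848, at -8.18 ± 0.63 (adjusted p = 5.15e-05), from 1 and 7 reads, with a pooled read ratio to vehicle whose exact 95% interval ran from 101 to 464. The fitted sizes of other genes of these lists with few reads after R848 carry wide counting error, with pooled vehicle to R848 read ratios of 258 (exact 95% interval 148 to 501) for E2f2, 208 (exact 95% interval 95.4 to 569.5) for Rad51ap1 and 174 (exact 95% interval 94.2 to 364) for Ticrr, and exact intervals of 72.4 to 374 for Fanci and 35.3 to 511 for Dscc1. E2f5, a repressing E2F, was the member of this list that rose, by 0.56 ± 0.095 (adjusted p = 7.69e-05) after the combined treatment and 0.61 ± 0.095 (adjusted p = 2.34e-05) after R848.

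Markers of other cell types were read beside these results. The sum of 10 macrophage markers lay between 15705 and 18686 CPM in all 10 libraries. Lyz2 made up most of it in vehicle, at a mean of 10936 CPM, and single markers differed, with 3 called higher and 6 lower after each of the combined treatment and R848. On the log2 scale Cd14 differed from vehicle by 1.20 and 2.69 and Mertk by -2.17 and -2.87. The 6 lymphocyte markers summed to at most 0.561 CPM. The 10 myeloid progenitor markers summed to 15.7 and 16.9 CPM in vehicle, 5.70 to 6.23 CPM with the combined treatment and 1.12 and 1.78 CPM with R848, nearly all of it Kit in vehicle, at 13.8 and 14.2 CPM, while Mpo was at or below 0.455 CPM in all libraries. Of the 3 progenitor markers tested, Kit was lower after both treatments. Myb was higher after the combined treatment, with a mean of 1.84 CPM beside 0.309 CPM in vehicle (2.73 ± 0.58, adjusted p = 0.00063). Cd34 had means of 1.38 CPM in vehicle, 1.48 CPM after the combined treatment and 0.0460 CPM after R848. The 8 fibroblast or stromal markers summed to 0.561 to 1.497 CPM in the vehicle, polyU and PNPi+dG/rG libraries, 4.18 and 5.56 CPM with the combined treatment and 141 and 151 CPM with R848. In the R848 libraries Col1a1 read 51.6 and 58.3 CPM, Col1a2 40.9 and 40.2 CPM and Pdgfrb 36.8 and 39.1 CPM, while Lum was at 0 and 0.0612 CPM. Of the 7 stromal markers tested, 3 were called higher after the combined treatment and 6 after R848, and 0 were called lower after either. The R848 libraries stood apart from the rest in the progenitor and the stromal sums, and the part of these markers in the replication results was not tested. The labels give no batch, so any culture or handling step that went with a group cannot be told apart from its treatment. The 6 erythroid markers summed to 90.1 to 148 CPM over all libraries.

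**Figure D5:**
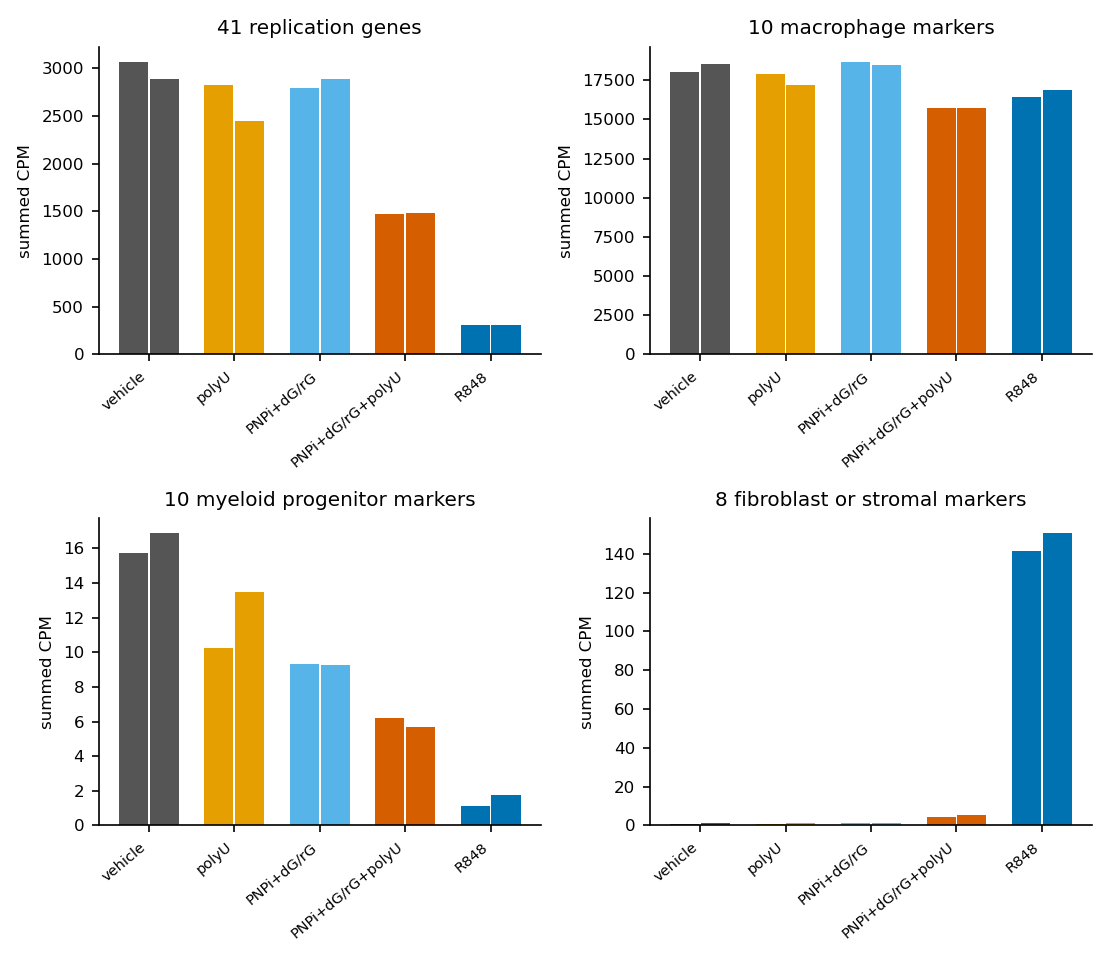
Summed CPM (vertical axes, from 0) of the 41 replication genes, 10 macrophage markers, 10 myeloid progenitor markers and 8 fibroblast or stromal markers, with 1 bar for each library. The replication sum falls to 1477 and 1481 CPM with PNPi+dG/rG+polyU and 304 and 313 CPM with R848, the progenitor sum is also lowest there, and the stromal sum reaches 141 and 151 CPM in the R848 libraries.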

How the data were processed

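RNA of 10 libraries, 2 in each of 5 groups, was prepared with a stranded mRNA kit, and per the labels' processing notes bcl2fastq 2.19.1.403, STAR 2.27a and the build GRCm38 were used. The authors counted reads per gene and deposited CPM, each with an offset of 0.0001. The table holds 55573 genes, of which 55394 have a symbol in GENCODE M21, which also gave the gene positions. After removal of the offset, 100% of low values were whole reads within 0.1 reads, which puts the depth at 14128128 to 38392592 reads on genes, so that 3 reads, the limit that a count of 0 allows, were 0.0781 to 0.212 CPM. Intervals from reads cover counting error only. Depth per library was used for read numbers and pooled ratios alone, and no test for counts was run, because the values are normalized. How reads on overlapping or near-identical genes were assigned is not given in the sources used here.

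limma 3.58.1 in R 4.3.3 (statmod 1.5.0) was fitted to log2 of the deposited values, offset included, with a mean for each of the 5 groups, eBayes with trend and robust estimates, and Benjamini-Hochberg adjustment over the 11978 genes that 2 or more libraries held at 1 CPM or above. No fold minimum was set for a call, and 2-fold and 8-fold counts are given beside it. The offset of 0.0001 makes fitted differences of genes with 0 to 3 reads uncertain. Pooled read ratios with exact 95% intervals (scipy 1.17.1) are given for those and for some others with few reads. The script was tested on simulated data with 2-fold and 4-fold changes. These do not cover the larger differences or the few reads seen after R848. Alternatives were pseudocounts of 0.1 and 1, no filter, a filter on the mean, libraries centred on the median, plain eBayes, fits of the compared groups alone, a replicate block, a 2-fold minimum, each library left out in turn and, added after seeing the data, all R848 libraries left out.

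The members, gene lists, tests and naming rule were chosen with earlier results of these data known. Named library by library are Mcm2, Mcm5, Cdc6, Cdt1, Orc1, Pcna, Pole, Fen1, Uhrf1, Slbp, Brca1 and Neil3, plus the 4 members with the largest called difference in each direction for PNPi+dG/rG+polyU and R848 against vehicle and against each other. For each further list the 2 largest called differences in each direction are named. Promoters are RefSeq windows of GRCm38.p6, and the 5 printed, cut at 30 bases after the start, are those with an E2F-type match in that stretch among the genes named library by library, ordered by the difference after R848. By the naming rule Cdt1 would stand before Mcm5, but its match begins at +33 and it was left out.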

Additional observations from a re-analysis of the deposited data

Results flagged for a closer look

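The effect of PNPi+dG/rG on the replication genes differed with and without polyU by a test of the difference itself, the interaction in limma. It was negative and called for 32 of the 41 members, against 38.9% of all genes tested. For 9 members it was at least 2-fold, against 8.87% of all genes. The members with at least a 2-fold interaction were Cdc6 at -2.21 ± 0.72 (adjusted p = 0.0437), Cdt1 at -1.96 ± 0.092 (adjusted p = 1.29e-10), Timeless at -1.47 ± 0.17 (adjusted p = 3.34e-06), Uhrf1 at -1.39 ± 0.29 (adjusted p = 0.00767) and Clspn at -1.27 ± 0.22 (adjusted p = 0.000444). The others were Pold1 at -1.13 ± 0.14 (adjusted p = 1.34e-05), Pole2 at -1.08 ± 0.23 (adjusted p = 0.00107), Gins3 at -1.06 ± 0.29 (adjusted p = 0.00629) and Chaf1a at -1.02 ± 0.27 (adjusted p = 0.0155). With libraries centred on the median, 11 of the 32 calls were lost, among them those of Cdc6 and Chaf1a, and 17% of all genes were called lower. The call of Cdc6 was lost without any 1 of the libraries outside R848 (adjusted p from 9.8e-07 to 0.111 over the libraries left out), and that of Chaf1a was also lost without PNPi+dG/rG+polyU replicate 2 (adjusted p from 0.00105 to 0.0546 over the libraries left out). The groups hold 2 libraries, so no single library could be tested as standing apart within its group.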

How the results depend on the processing

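Over 407 values under alternatives, 378 were rated the same as in the main fit and 29 were not. A median was rated the same if it moved by less than the spread between replicates. A count of called members was rated the same if it stayed within a set ratio of the main count. The fall from 38 to 29 members lower against polyU with centred libraries is therefore among the 378, as are counts of 0 that stayed at 0. So are medians that could not move, under plain eBayes, the replicate block, the compared groups alone or without a library outside the comparison. Of single called members, Gins4 against polyU and Slbp between PNPi+dG/rG+polyU and R848 turned when libraries were centred on the median, to 0.06 and -0.06. Among the 378, the median member difference after polyU turned from -0.14 to 0.03 without polyU replicate 2. The 1 member higher after polyU became 0 with no filter, centred libraries, only the groups compared and a 2-fold minimum, and ranged from 0 to 1 over the libraries left out. The 6 members lower after polyU became 11 with a pseudocount of 1, with only the groups compared and without the R848 libraries, 0 at 2-fold, and ranged from 4 to 11 over the libraries left out. At 2-fold, 14 members were lower after PNPi+dG/rG+polyU, 11 against polyU and 9 in the interaction, and centred libraries left 21 in the interaction. The median after PNPi+dG/rG+polyU was -0.59 when centred and ran from -0.86 to -0.73 over the libraries left out. The median after R848 was -3.31 with a pseudocount of 1 and -3.23 when centred. Between PNPi+dG/rG+polyU and R848 it was 2.25 with a pseudocount of 1, 2.30 when centred and from 2.68 to 2.82 over the libraries left out. The cause of these changes was not tested.

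Libraries with the same replicate number did not deviate together, with correlations of deviations over 8459 genes of at least 10 CPM on average from -0.286 to 0.109 and a median of -0.023, so the numbers were not taken as pairs. With the replicate block, 7 members were lower after polyU, 36 after PNPi+dG/rG+polyU and 41 after R848. There were 37 lower against polyU and 32 in the interaction, and 41 were higher against R848. The medians could not change, because every group held both replicate numbers. The block ended the calls of Cdc6 in the interaction (adjusted p = 0.0736) and of Brca1 against polyU (adjusted p = 0.0677), added those of Slbp in the interaction and Clspn after polyU, and changed no other call of a member. Genes with few reads after R848 have their size limited by depth there, and 2 libraries a group limit every test.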
